A study of Bos taurus with 6 samples.

Results

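The genes described here encode the chaperones, folding enzymes, degradation machinery, stress sensors and protein entry machinery of the endoplasmic reticulum (ER). They were taken by symbol from a list of 52, of which 51 were found among the 12826 genes of the count table and ATF6B was not analysed here. All 51 passed the filter on low counts and were among the 12732 genes tested. The study measured polyadenylated RNA of bovine (Bos taurus) blastocysts produced in vitro from slaughterhouse material and collected on day 7. In 3 libraries the embryos had been given beta-hydroxybutyrate (BHB), a ketone body made by the liver in fasting and negative energy balance, and in 3 control libraries they had not. Every library was made from pooled whole embryos, so fewer cells of a type and less RNA per cell cannot be told apart. Library totals were 6440732 to 7348949 counts with BHB and 7925889 to 8176648 counts in controls.

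Proteins that will be secreted or placed in membranes enter the ER through the SEC61 channel, lose their signal peptide, receive sugar chains and fold with the help of chaperones. Proteins that fail to fold are trimmed, drawn back to the cytosol and degraded. When unfolded proteins accumulate, the sensors ERN1 (also called IRE1), EIF2AK3 (PERK) and ATF6 start the unfolded protein response, in which the transcription factors XBP1 and ATF6 raise chaperone and degradation genes. The trophectoderm of the blastocyst is a secretory and transporting epithelium, and ER load is commonly followed in cultured embryos through HSPA5.

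ER genes were on the whole at slightly lower levels in BHB blastocysts, and none passed the test. The log2 fold change of BHB over control was negative in 44 of 51 genes with a median of -0.14. Over all tested genes it was negative in 6478 of 12732 with a median of -0.005. By role, the medians were -0.22 in Hsp70 and Hsp90 chaperones, -0.21 in degradation genes, -0.19 in the lectin chaperones and -0.18 in disulfide bond enzymes, against -0.08 in the translocon, -0.05 in signal peptidase and oligosaccharyltransferase and 0.007 in the sensors. These medians were not tested against each other, and their order moved with single libraries. Without BHB library 3 the medians of degradation genes and disulfide bond enzymes were -0.074 and -0.070, close to -0.089 in the translocon, that of the lectin chaperones was 0.034 and that of the chaperones -0.16. Without BHB library 1 the sensor median was -0.28. Scaled by library size alone, the ER genes had 34 of 51 negative with a median of -0.08, all tested genes had a median of 0.06, and the median of signal peptidase and oligosaccharyltransferase turned to 0.02. In edgeR's quasi-likelihood test with Benjamini-Hochberg adjustment 0 of 51 genes were called at 0.05 (adjusted p = 0.999 for each), as 0% of all tested genes were. At an unadjusted p under 0.05 there were 3 ER genes, all lower (SDF2L1, PDIA4 and HERPUD1), against 1.26% of all genes lower at that level. Without pairs, DESeq2's Wald test called 0 ER genes and 6 of all 12732 genes. Limma-voom without pairs called 0 ER genes and 0 of all genes.

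**Figure D1:**
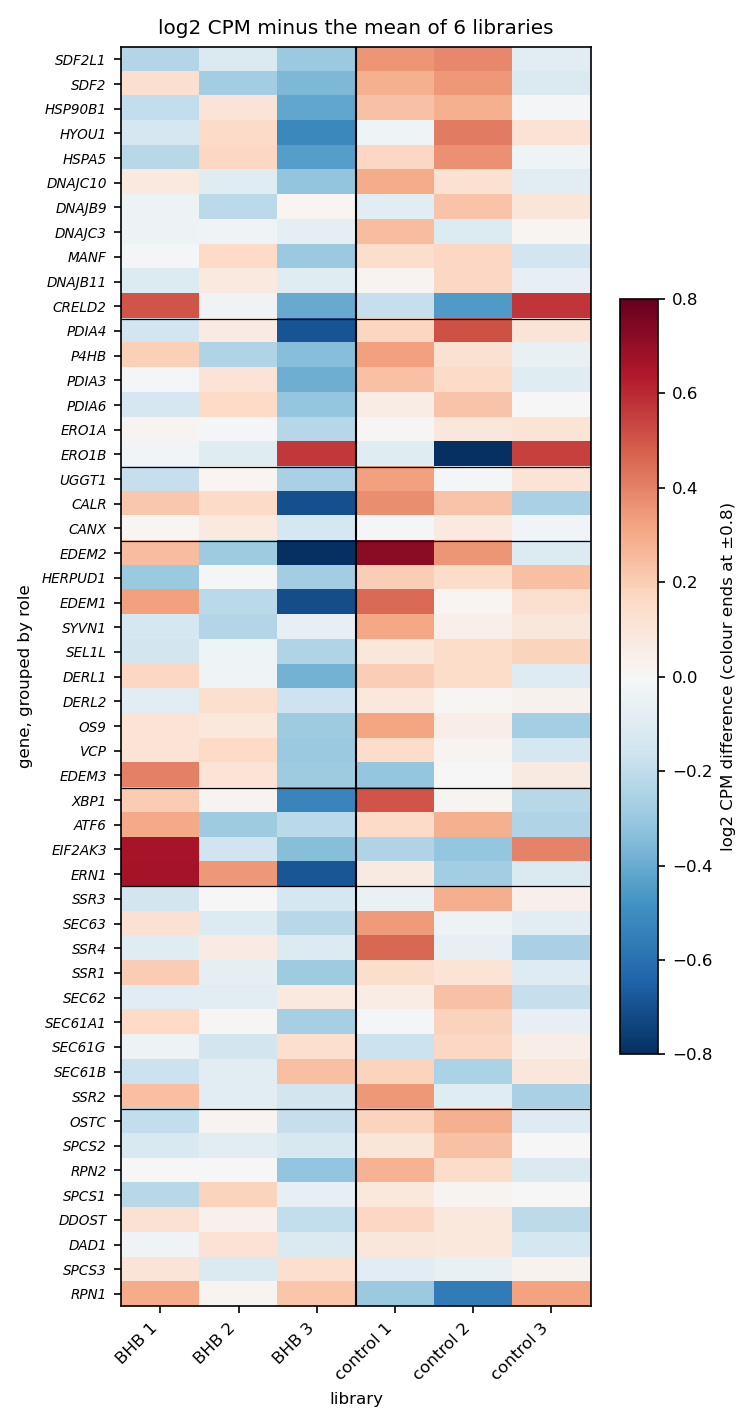
Heat map of log2 CPM of 51 ER genes (rows, grouped by role and ordered by fold change) in BHB libraries 1 to 3 and control libraries 1 to 3 (columns), each gene centred on its mean over 6 libraries. Blue is below and red above that mean; BHB library 3 holds the lowest value of 30 of 51 genes.

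The libraries also fall into 3 pairs of 1 BHB and 1 control library, recovered from the model behind the authors' deposited table, and levels within a pair resembled each other. Within pairs, 25 of 51 ER genes were lower with BHB in 3 of 3 pairs, or 49.0%, where 15.7% of all tested genes were. The 51 genes come from the same libraries and are not independent observations, so this and the other shares of ER genes are descriptions and were not tested. With the pair as a block, edgeR again called 0 ER genes and 0% of all genes. That blocked fit put 16 ER genes at an unadjusted p under 0.05, of which 15 were lower (29.4%, against 4.21% of all genes), and RPN1 was the 1 higher. DESeq2's Wald test with the same block called 1 ER gene, EDEM2, where it called 0.283% of all genes.

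The BHB and control libraries did not overlap in 6 of 51 ER genes, all with BHB below: SDF2L1, PDIA4, HERPUD1, SEL1L, SYVN1 and SPCS2. That is 11.8% against 3.78% of all tested genes. BHB lay wholly above control in 0 ER genes, against 4.06% of all genes. The lowest library was BHB 3 for 30 of 51 ER genes (58.8%) and for 17.9% of all tested genes; it also had the smallest total. Without it the median of the ER genes was -0.08 with 35 of 51 negative, and without control library 1 it was -0.08 with 36 negative. Without control library 3 it was -0.22. The direction was the same in 22 alternative fits for 29 ER genes, 26 of them lower and 3 higher (ERN1, SPCS3 and RPN1). A fit that leaves out 1 library keeps its partner and so mixes pair with treatment.

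Highly expressed genes were negative more often than not. Of 2062 tested genes at a mean of at least 100 CPM, a limit chosen after the values were seen, 63.8% were negative with a median of -0.05. Of the 35 ER genes above the same level, 33 were negative with a median of -0.14. Of these ER genes 51.4% were lower in 3 of 3 pairs, against 24.2% of the highly expressed genes. In the blocked edgeR fit 25.7% were lower at an unadjusted p under 0.05, against 8.24%. BHB library 3 was the lowest for 57.1% against 25.4%. BHB lay wholly below control for 5.71% against 4.41%, and wholly above for 0% against 2.18%. In pairs 1 and 2 the highly expressed genes had medians of -0.090 and -0.040 (64.6% and 58.4% lower). The 35 ER genes had medians of -0.14 and -0.099 in these pairs, with 26 and 27 genes lower. In pair 3 the highly expressed genes were level (median 0.00089, 49.8% lower), and 26 of these 35 ER genes were lower with a median of -0.14. Together the 51 genes took 1.71%, 1.77% and 1.51% of counts in BHB libraries 1 to 3 and 1.80%, 1.81% and 1.72% in control libraries 1 to 3. The exact 95% binomial intervals of these shares cover counting error only. They were 1.697% to 1.715%, 1.759% to 1.778% and 1.499% to 1.518% in BHB libraries 1 to 3. In control libraries 1 to 3 they were 1.790% to 1.809%, 1.799% to 1.818% and 1.709% to 1.727%. Each BHB library had a lower share than its partner, although BHB library 2 lay above control library 3, and BHB library 3 was the lowest of all. This share rests mostly on the genes with the most counts. HSPA5 alone took 0.207%, 0.267% and 0.187% of counts in BHB libraries 1 to 3, against 0.253%, 0.291% and 0.243% in control libraries 1 to 3.

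Among the Hsp70 and Hsp90 chaperones and their partners, 10 of 11 genes had negative fold changes and 8 were lower in 3 of 3 pairs, but none was called. HSPA5 (also called BiP), the luminal Hsp70 that binds nascent chains and holds the stress sensors inactive, was at 2050.4, 2681 and 1759.8 CPM in BHB libraries 1 to 3, against 2681, 3072 and 2332 CPM in control libraries 1 to 3. BHB library 2 equalled control library 1, so the groups overlapped, yet each BHB library lay below its partner. Its mean was 2164 ± 471 CPM in BHB libraries and 2695 ± 370.2 CPM in control libraries (SD, n = 3 each), or 19.7% lower (log2 fold change -0.32, SE 0.18), and the differences within pairs 1 to 3 were -0.39, -0.20 and -0.41 on the log2 scale. The block gave a log2 fold change of -0.33 (SE 0.087) at an edgeR adjusted p of 0.371.

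HSP90B1 (GRP94), the luminal Hsp90 that folds integrins and Toll-like receptors, followed much the same order of libraries. It was at 973, 1199 and 834 CPM in BHB libraries 1 to 3, against 1312, 1359.6 and 1105 CPM in control libraries 1 to 3. BHB library 2 lay above control library 3, and the other 2 BHB libraries lay below every control. Its log2 fold change was -0.33 (SE 0.16), with -0.43, -0.18 and -0.41 in pairs 1 to 3 and a blocked edgeR adjusted p of 0.398. HYOU1, which exchanges nucleotides on HSPA5, had a log2 fold change of -0.32 (SE 0.19), with -0.63 in pair 3 and -0.10 in pair 1.

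SDF2L1, a luminal partner of the cochaperone DNAJB11, had the lowest fold change of this group. It was at 30.3, 33.0 and 29.0 CPM in BHB libraries 1 to 3, against 45.7, 46.7 and 33.6 CPM in control libraries 1 to 3. All 3 BHB libraries lay within a narrow range below all controls, and the control spread came from control library 3. Its log2 fold change was -0.45 (SE 0.18, 95% interval -0.86 to -0.04), and it was lower in 3 of 3 pairs (-0.59, -0.50 and -0.21). Its relative SDF2 had a log2 fold change of -0.34 (SE 0.19), also negative in 3 of 3 pairs.

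The J proteins, which deliver clients to HSPA5 and start its cycle, differed less than HSPA5 and HSP90B1 in log2 fold change. DNAJB9, a target of XBP1, was at 169, 149 and 175 CPM in BHB libraries 1 to 3, against 163, 203 and 185 CPM in control libraries 1 to 3. It was above its partner in pair 1, and its log2 fold change of -0.16 (SE 0.14) came mostly from pair 2 (-0.44). DNAJB11, DNAJC3 and the disulfide reductase DNAJC10 had log2 fold changes of -0.08 (SE 0.13), -0.11 (SE 0.13) and -0.22 (SE 0.15). DNAJB11 and DNAJC10 were lower in 3 of 3 pairs, DNAJC10 with -0.21, -0.22 and -0.23 in pairs 1 to 3. MANF, a secreted ER protein that binds HSPA5, was at 275 ± 42.5 CPM in BHB libraries and 293 ± 34.6 CPM in control libraries (log2 fold change -0.09, SE 0.16, but 0.02 without BHB library 3).

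CRELD2, an ER stress gene that is often induced with MANF, varied between the libraries of both groups. It was at 42.4, 29.4 and 22.6 CPM in BHB libraries 1 to 3, against 26.3, 21.9 and 44.5 CPM in control libraries 1 to 3. The differences within pairs were 0.68, 0.42 and -0.97, so the fold change of 0.03 on the log2 scale (SE 0.31) averages opposite values.

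**Figure D2:**
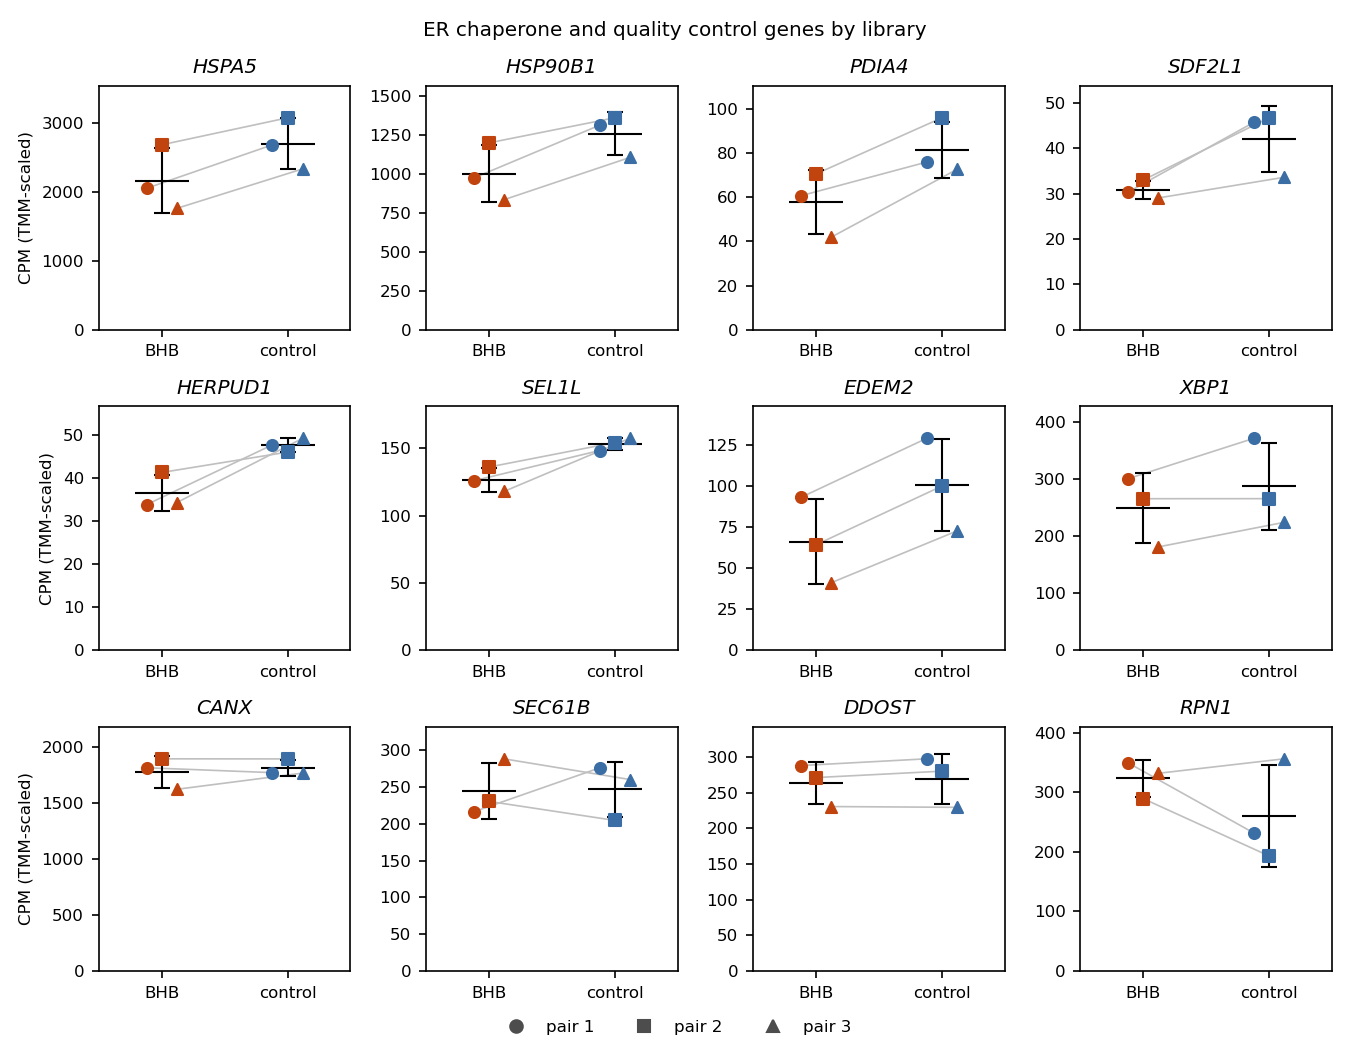
Levels of 12 ER genes in CPM on TMM-scaled library sizes (linear axes from 0), BHB left and control right. Each symbol is 1 library, grey lines join the libraries of a pair, and bars give the mean ± SD of 3 libraries; HSPA5, HSP90B1, PDIA4, SDF2L1, HERPUD1, SEL1L and EDEM2 slope up to control in every pair, while CANX, SEC61B and DDOST do not.

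Of the disulfide bond enzymes, 5 of 6 had negative fold changes and 4 were lower in 3 of 3 pairs. PDIA4 (ERp72), a protein disulfide isomerase found in complexes with HSPA5 and HSP90B1, was at 60.6, 70.5 and 41.9 CPM in BHB libraries 1 to 3, against 75.9, 95.9 and 72.6 CPM in control libraries 1 to 3. The highest BHB library stayed just below the lowest control. On average it was 29.1% lower (log2 fold change -0.50, SE 0.21, 95% interval -0.97 to -0.03), with -0.32, -0.44 and -0.79 in pairs 1 to 3 and a blocked edgeR adjusted p of 0.367. P4HB, the founding protein disulfide isomerase, was at 405, 299.8 and 280.0 CPM in BHB libraries 1 to 3, against 445, 385 and 340.5 CPM in control libraries 1 to 3. BHB library 1 lay above control libraries 2 and 3, but each BHB library was below its own partner (log2 fold change -0.25, SE 0.17).

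PDIA3, which acts on glycoproteins held by calnexin and calreticulin, and PDIA6 had log2 fold changes of -0.18 (SE 0.16) and -0.18 (SE 0.15). Both were negative in 3 of 3 pairs, with -0.04 and -0.07 in pair 2. The oxidases ERO1A and ERO1B recharge these isomerases, and the difference between them was not tested. ERO1A was at 190.1, 186 and 159 CPM in BHB libraries 1 to 3, against 188, 199 and 202 CPM in control libraries 1 to 3 (log2 fold change -0.14, SE 0.13). ERO1B had a log2 fold change of 0.21 (SE 0.33), was higher with BHB in 3 of 3 pairs (0.07, 0.79 and 0.02) and spanned 2.71-fold among the controls. Without control library 2 its log2 fold change was -0.08. It was the 1 ER gene that was higher in 3 of 3 pairs, and the groups overlapped.

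The calnexin and calreticulin cycle retains glycoproteins until they fold. UGGT1, which tags unfolded glycoproteins for a further round, was at 53.1, 60.9 and 50.5 CPM in BHB libraries 1 to 3, against 75.9, 59.9 and 65.2 CPM in control libraries 1 to 3. BHB library 2 overlapped control library 2, and the log2 fold change was -0.29 (SE 0.16). CALR, the soluble lectin, was at 1056, 1011 and 559 CPM in BHB libraries 1 to 3, against 1179, 1067 and 759.5 CPM in control libraries 1 to 3. In both groups the library of pair 3 was the lowest by far, and the difference (log2 fold change -0.19, SE 0.25, but 0.04 without BHB library 3) was smaller than the spread between pairs. CANX, the membrane-bound lectin, was at 1815, 1895 and 1622 CPM in BHB libraries 1 to 3, against 1771, 1894 and 1767 CPM in control libraries 1 to 3. BHB library 3 was the lowest and the other 5 libraries were close together, with a log2 fold change of -0.03 (95% interval -0.31 to 0.25) that turned positive, to 0.04, when libraries were scaled by size alone.

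ER-associated degradation removes proteins that do not fold, and 9 of its 10 genes had negative fold changes, 6 of them in 3 of 3 pairs. EDEM2, a mannosidase that starts the trimming of N-glycans on misfolded glycoproteins, is named because it was the 1 ER gene called by the blocked DESeq2 test and was chosen after its values were seen. It was at 93.1, 64.3 and 41.1 CPM in BHB libraries 1 to 3, against 129, 99.96 and 72.7 CPM in control libraries 1 to 3. In both groups the library of pair 1 was the highest and that of pair 3 the lowest, and BHB library 1 was close to control library 2. Within pairs the differences were -0.47, -0.64 and -0.82, and without pairs the log2 fold change was -0.60 (SE 0.30).

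With the block, DESeq2 gave EDEM2 a log2 fold change of -0.64 (SE 0.16, adjusted p = 0.0234) and edgeR one of -0.64 (SE 0.12, adjusted p = 0.183). The 2 estimates were alike, and the adjusted p passed 0.05 in DESeq2 alone. The DESeq2 call was lost without pair 1, 2 or 3 (adjusted p = 0.280, 0.999 and 0.605), and over all alternatives EDEM2 had adjusted p from 0.0234 to 0.9999 and log2 fold changes from -0.93 to -0.35. EDEM1, a target of XBP1, was at 59.1, 40.6 and 28.9 CPM in BHB libraries 1 to 3, against 64.5, 47.6 and 51.5 CPM in control libraries 1 to 3 (log2 fold change -0.35, SE 0.25), with -0.83 in pair 3 alone against -0.13 and -0.23 in pairs 1 and 2. EDEM3 had a log2 fold change of 0.17 (SE 0.20), positive in pairs 1 and 2 and -0.36 in pair 3.

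HERPUD1, an ER membrane protein that gathers the degradation complex, was at 33.8, 41.3 and 34.3 CPM in BHB libraries 1 to 3, against 47.7, 46.0 and 49.2 CPM in control libraries 1 to 3. The controls were close to each other and all 3 BHB libraries were below them (log2 fold change -0.39, SE 0.16, 95% interval -0.74 to -0.04). SEL1L, the adaptor of the ubiquitin ligase SYVN1, was at 126, 136 and 118 CPM in BHB libraries 1 to 3, against 148, 154 and 157 CPM in control libraries 1 to 3. It too was lower in every BHB library than in any control, by 17.4% on average (log2 fold change -0.28, SE 0.12), with control libraries within 1.06-fold of each other. The ligase gene SYVN1 itself was at 9.03, 8.45 and 9.48 CPM in BHB libraries 1 to 3, against 12.3, 10.2 and 10.6 CPM in control libraries 1 to 3. These low levels rest on 61 to 67 counts per BHB library and 77 to 92 counts per control library, and the log2 fold change of -0.29 has an SE of 0.23.

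The remaining degradation genes had log2 fold changes from -0.15 to -0.01. DERL1 and DERL2, membrane proteins through which substrates leave the ER, had log2 fold changes of -0.15 (SE 0.17) and -0.08 (SE 0.14), and the lectin OS9 one of -0.07 (SE 0.19). DERL1 was lower in 3 of 3 pairs (-0.03, -0.18 and -0.27), with a 95% interval from -0.52 to 0.22. VCP, the ATPase that pulls substrates into the cytosol, was at 607, 628 and 459 CPM in BHB libraries 1 to 3, against 625, 573 and 510.0 CPM in control libraries 1 to 3. BHB libraries 1 and 2 lay among or above the controls, and the log2 fold change was -0.01 (95% interval -0.36 to 0.34). Scaling by library size alone turned VCP and OS9 to 0.05 and 0.0022.

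**Figure D3:**
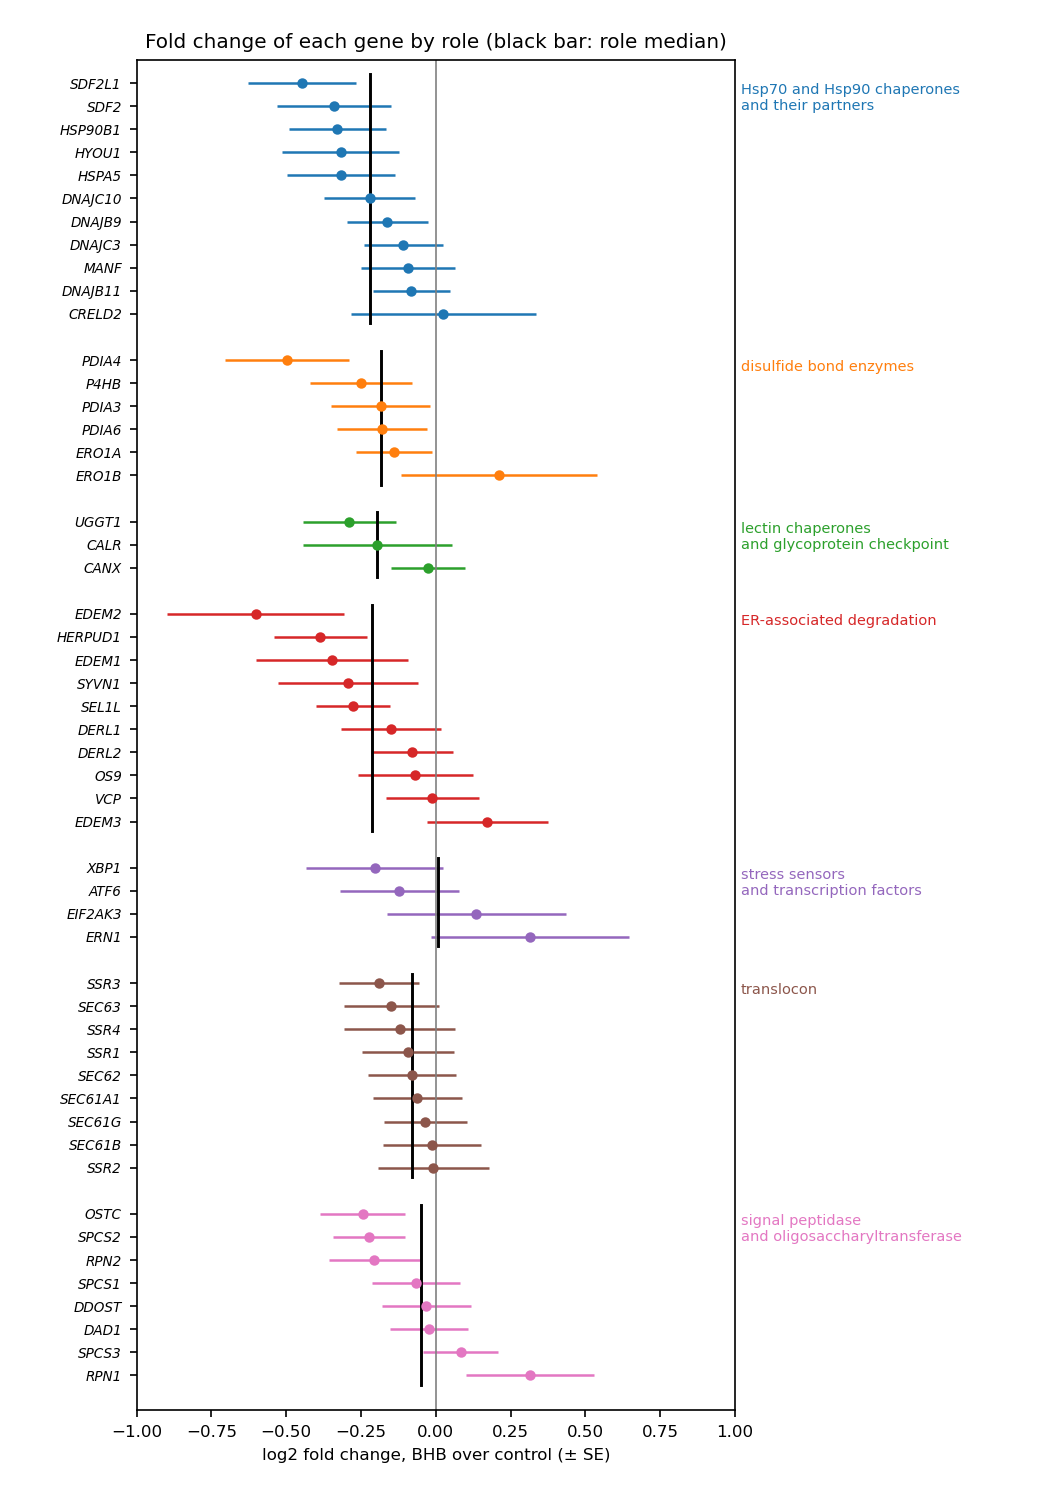
Log2 fold change of BHB over control (x axis) for 51 ER genes (rows, by role), with the standard error as bars and a black line at the median of each role; the grey line is no difference. Medians lie at -0.22 for Hsp70 and Hsp90 chaperones and -0.21 for degradation, against -0.08 for the translocon.

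The stress sensors and their factors did not share a direction: 2 of 4 were negative and 2 positive. XBP1, the transcription factor that ERN1 activates by splicing its RNA, was at 301, 266 and 181 CPM in BHB libraries 1 to 3, against 372, 266 and 224 CPM in control libraries 1 to 3. It was level in pair 2 and lower in pairs 1 and 3 (-0.30 and -0.31), for a log2 fold change of -0.20 (SE 0.23) that was 0.03 without control library 1. Counts per gene do not separate spliced from unspliced XBP1. ATF6, which is cut in the Golgi to release a transcription factor, was at 167, 111 and 117 CPM in BHB libraries 1 to 3, against 151, 165 and 115 CPM in control libraries 1 to 3 (log2 fold change -0.12, SE 0.20). Its difference came from pair 2 (-0.57), with 0.15 and 0.02 in pairs 1 and 3.

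ERN1, the kinase and nuclease that splices XBP1, was at 19.4, 15.5 and 7.59 CPM in BHB libraries 1 to 3, against 12.8, 10.1 and 11.3 CPM in control libraries 1 to 3. BHB libraries 1 and 2 lay above all controls and BHB library 3 below them (log2 fold change 0.32, SE 0.33). EIF2AK3, the kinase that slows translation, was at 45.1, 25.6 and 22.6 CPM in BHB libraries 1 to 3, against 24.2, 23.1 and 37.7 CPM in control libraries 1 to 3. It was high in BHB library 1 and control library 3 only (log2 fold change 0.14, SE 0.30). Gene levels of these sensors do not measure their activity.

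The same swing appeared in 4 genes picked after their values were seen. In pair 1, CRELD2, EDEM3, ERN1 and EIF2AK3 were higher with BHB by 0.68, 0.71, 0.59 and 0.89 on the log2 scale, and in pair 3 they were at -0.97, -0.36, -0.56 and -0.73.

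Translocon genes were close to level. All 9 had negative fold changes, between -0.19 and -0.008, but 2 were lower in 3 of 3 pairs, and scaling by library size alone made SEC61A1, SEC61B, SEC61G and SSR2 positive. SEC61B, a small subunit of the channel, was at 216, 231 and 288 CPM in BHB libraries 1 to 3, against 276, 205 and 260.3 CPM in control libraries 1 to 3. BHB library 3 was the highest of the 6, and the log2 fold change was -0.01 (95% interval -0.38 to 0.36). SEC61A1, the pore subunit, and SEC61G, the other small one, had log2 fold changes of -0.06 (SE 0.15) and -0.03 (SE 0.14).

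SSR3, part of the translocon-associated TRAP complex, was at 404, 448 and 406 CPM in BHB libraries 1 to 3, against 429.6, 547 and 459 CPM in control libraries 1 to 3. It had the lowest fold change of the group (log2 fold change -0.19, SE 0.13) and was lower in 3 of 3 pairs. The partners SSR1, SSR2 and SSR4 had log2 fold changes of -0.09 (SE 0.15), -0.01 (SE 0.19) and -0.12 (SE 0.19), that of SSR4 resting on pair 1 (-0.55). SEC63, which brings HSPA5 to the channel, was at 317, 270.2 and 250.2 CPM in BHB libraries 1 to 3, against 370.3, 284 and 274 CPM in control libraries 1 to 3 (log2 fold change -0.15, SE 0.16), and its partner SEC62 had a log2 fold change of -0.08 (SE 0.15).

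Signal peptidase and oligosaccharyltransferase each had subunits with fold changes of either sign, and differences between the subunits of a complex were not tested. SPCS2, a signal peptidase subunit, was at 405, 415 and 404 CPM in BHB libraries 1 to 3, against 471, 517 and 441 CPM in control libraries 1 to 3. The BHB libraries were almost equal and all below the controls (log2 fold change -0.22, SE 0.12). SPCS1 and SPCS3 of the same enzyme had log2 fold changes of -0.07 (SE 0.15) and 0.08 (SE 0.13), and SPCS1 was at 4.6e-05 under scaling by library size alone. OSTC, an oligosaccharyltransferase subunit at the translocon, was at 307, 357 and 310.0 CPM in BHB libraries 1 to 3, against 398, 428 and 328 CPM in control libraries 1 to 3, and was lower in 3 of 3 pairs (log2 fold change -0.24, SE 0.14).

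RPN1 and RPN2, the ribophorins of the oligosaccharyltransferase, differed in sign. RPN1 was at 349, 289 and 332 CPM in BHB libraries 1 to 3, against 231, 193 and 356 CPM in control libraries 1 to 3. Control libraries 1 and 2 were lower than all other libraries and control library 3 was the highest (log2 fold change 0.31, SE 0.21). Its differences within pairs 1 to 3 were 0.59, 0.58 and -0.10. RPN2 was at 521, 519 and 417 CPM in BHB libraries 1 to 3, against 628, 575 and 478 CPM in control libraries 1 to 3, and was lower in 3 of 3 pairs (log2 fold change -0.21, SE 0.15). The difference between RPN1 and RPN2 was not tested. DDOST, which anchors the complex, was at 288, 271 and 231 CPM in BHB libraries 1 to 3, against 297, 280.1 and 229 CPM in control libraries 1 to 3. Its log2 fold change was -0.03 (95% interval -0.36 to 0.30) and that of DAD1 was -0.02 (SE 0.13), and both turned positive under scaling by library size alone.

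**Figure D4:**
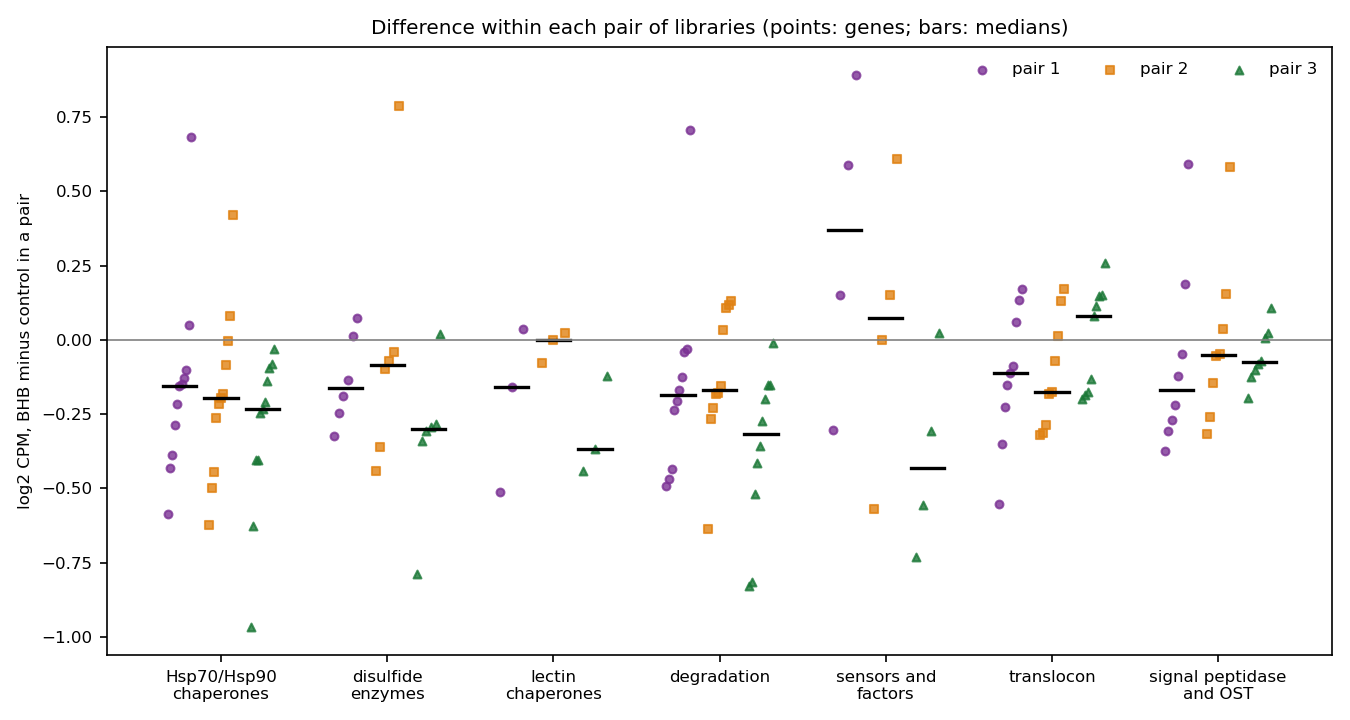
Difference in log2 CPM of BHB minus control within pairs 1 to 3 (colours and symbols) for the ER genes of each role (points), with the median of each role and pair as a black bar. Chaperones, disulfide enzymes and degradation genes have medians below 0 in each pair, from -0.084 to -0.32, while sensor medians run from 0.37 in pair 1 to -0.43 in pair 3. Signal peptidase and oligosaccharyltransferase also has medians below 0 in each pair (-0.17, -0.051 and -0.076).

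By pair, 37, 34 and 41 of 51 ER genes were lower with BHB in pairs 1, 2 and 3, with medians of -0.15, -0.086 and -0.19. The medians of all tested genes were 0.0047, 0.0045 and -0.0085. Differences between pairs were called for 4 ER genes, ERO1B, CALR, EDEM2 and XBP1 (edgeR with treatment in the model, adjusted p = 0.0372, 0.0154, 0.0163 and 0.0332), where 4.12% of all genes were called. In the authors' deposited table, whose p-value covers pair and treatment together, 8 of 51 ER genes (15.7%, against 5.04% of all genes) had an adjusted p under 0.05: those 4 with HSPA5, HSP90B1, PDIA4 and P4HB.

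Other genes of the ER pathways, in 5 lists of 147 genes with 138 tested, had negative fold changes in 83 genes and a median of -0.07, and 0 were called in edgeR with or without the block (unadjusted p under 0.05 in 1 and 10, or 0.725% and 7.25%, against 2.73% and 8.2% of all genes). Glycan processing genes had 19 of 25 negative (median -0.15), and 11 were lower in 3 of 3 pairs. Among them MCFD2, which carries cargo out of the ER with LMAN1, was at 382, 318 and 280.1 CPM in BHB libraries 1 to 3, against 447, 438 and 358 CPM in control libraries 1 to 3 (log2 fold change -0.34, SE 0.16), and DPAGT1, which starts the synthesis of N-glycan precursors, had a log2 fold change of -0.30 (SE 0.16). Further degradation genes had 21 of 31 negative (median -0.12), as in the lectin ERLEC1 at -0.29 (SE 0.16) and the VCP adaptor FAF1 at -0.28 (SE 0.17). Other folding enzymes had 18 of 29 negative (median -0.10), with ERP44, which retrieves ERO1 oxidases, at -0.23 (SE 0.14) and CNPY3, a helper of HSP90B1, at 0.45 (SE 0.29).

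Targeting and insertion genes were evenly split, with 14 of 29 negative. EMC10 and EMC2 are subunits of the same membrane insertase and differed in sign. EMC10 was at 80.2, 83.6 and 82.1 CPM in BHB libraries 1 to 3, against 54.0, 50.4 and 70.8 CPM in control libraries 1 to 3, above every control (log2 fold change 0.49, SE 0.16, adjusted p = 0.999). EMC2 had a log2 fold change of -0.31 (SE 0.15). Other regulators of the unfolded protein response had 11 of 24 negative and a median of 0.02, with the proteases that cut ATF6, MBTPS1 and MBTPS2, at 0.25 (SE 0.17) and -0.21 (SE 0.18).

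The libraries held the markers of a blastocyst. Of 8 trophectoderm markers 7 were tested, CDX2, GATA3 and KRT8 among them, and their summed level was 8303 to 13453 CPM in BHB libraries and 10526 to 17125 CPM in control libraries. Inner cell mass and epiblast markers (5 of 6 tested) summed to 380.2 to 439.8 CPM with BHB and 401.7 to 430.8 CPM in controls, and primitive endoderm markers (5 of 6) to 172 to 235 CPM and 153 to 234 CPM; SOX2 and SOX17 were not analysed here. Cumulus and granulosa markers (3 of 11) reached 28.2 to 35.3 CPM with BHB and 29.6 to 37.5 CPM in controls, oocyte markers (2 of 7) 10.5 to 18.8 CPM and 11.8 to 15.6 CPM, oviduct markers (2 of 3) 4.72 to 6.65 CPM and 4.11 to 8.57 CPM, sperm markers (1 of 4) 2.63 to 4.04 CPM and 1.06 to 4.81 CPM, and 0 of 5 leukocyte markers were tested. The part of these markers in the lower ER levels was not tested.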

How the data were processed

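Pools of bovine day 7 blastocysts were profiled by stranded, polyadenylated RNA-seq on 1 lane, per the labels' protocols. Per the submitters' processing notes the authors used STAR, featureCounts and DESeq2; no version, build, annotation, strand setting or handling of reads with several map positions is stated, so genes with near-identical copies are uncertain. The authors deposited whole-number counts per gene, not normalized, whose smallest total per gene is 38. The authors' deposited table holds a mean count on a signal scale, a log2 fold change with its error, a test score and p-values, per the file headers.

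Samples were grouped by the labelled treatment and numbered by order of deposit; the labels name no separate cultures, and p-values therefore reflect spread among libraries that may be technical. Counts were scaled with TMM and filtered with filterByExpr (12732 of 12826 genes kept). BHB was compared with control over all genes with edgeR's quasi-likelihood test, without covariates, and Benjamini-Hochberg adjustment at 0.05 (R 4.3.3, edgeR 4.0.16, limma 3.58.1, DESeq2 1.42.0). In the edgeR fits SE is the size of the log2 fold change over the root of F, and in the DESeq2 fits it is the error that DESeq2 reports. Levels are CPM, compared within a gene, since gene lengths per transcript were not used here. The tests were checked on simulated data with changes larger than the log2 fold change of any ER gene and with no pair effect. That check does not show how the tests perform on differences as small as those of the ER genes or with paired libraries. An exact permutation test of 3 against 3 libraries cannot go below p = 0.1, so none was run for single genes.

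DESeq2's likelihood ratio test of pair and treatment against neither matched the authors' p-value to within 1e-06 for 99.98% of genes when control and BHB libraries of the same number were paired, and for 0 to 0.398% under the other 5 pairings. Deviations of paired libraries from their group means correlated over genes at 0.46, 0.32 and 0.33, so the pairs were used as a block in the alternative fits; the pairing is not stated in the labels.

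The genes, their 7 roles, the 5 further lists and the naming rule were chosen with earlier results of these data known. The rule gives full values for a fixed set of 20 genes and the 2 with the smallest p in each role; CRELD2, EDEM2, RPN1 and RPN2 were added after their values were seen, and pathway lists name their 2 genes with the smallest p. Alternatives were other scalings, filters and tests, the block, and leaving out each library or pair.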

Additional observations from a re-analysis of the deposited data

How the results depend on the processing

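The count of called genes over the whole table was 0 under other scalings, filters, limma-voom, edgeR's robust form and the blocked edgeR test, 6 with DESeq2's Wald test and 36 with DESeq2 and the replicate block; leaving out 1 library or 1 pair gave 0 to 16. Of the ER genes 1 (EDEM2) was called, with DESeq2 and the block, and the block changed no other call among them. The median log2 fold change of the ER genes was -0.076 under scaling by library size alone and ran from -0.22 to -0.076 over the fits without 1 library or pair. That of signal peptidase and oligosaccharyltransferase was 0.020 under scaling by library size alone and ran from -0.13 to 0.0024. Over the same leave-out fits the median ran from -0.31 to -0.16 in chaperones, -0.28 to -0.074 in degradation genes, -0.25 to -0.070 in disulfide bond enzymes, -0.165 to -0.045 in the translocon, -0.31 to 0.034 in lectin chaperones and -0.28 to 0.20 in sensors. Scaling by library size alone, which moved the median of all genes to 0.06, turned from negative to positive CANX (0.038), OS9 (0.0022), VCP (0.055), SEC61A1 (0.0036), SEC61B (0.058), SEC61G (0.034), SSR2 (0.065), SPCS1 (4.6e-05), DAD1 (0.047) and DDOST (0.039); SSR2 also turned with limma-voom (0.0085) and with the blocked edgeR test (0.0043). Leaving out 1 library or pair turned the sign of 22 genes in at least 1 fit. Their log2 fold changes over these fits were, for MANF (-0.20 to 0.020), CRELD2 (-0.29 to 0.57), ERO1B (-0.080 to 0.62), CALR (-0.36 to 0.044), CANX (-0.073 to 0.034), EDEM3 (-0.13 to 0.42), OS9 (-0.21 to 0.085) and VCP (-0.10 to 0.12). Those of XBP1 (-0.36 to 0.027), ATF6 (-0.33 to 0.091), EIF2AK3 (-0.30 to 0.55), SEC61A1 (-0.19 to 0.046), SEC61B (-0.14 to 0.16), SEC61G (-0.12 to 0.11), SEC62 (-0.24 to 0.055) and SEC63 (-0.25 to 0.0032) likewise crossed 0, as did those of SSR1 (-0.23 to 0.017), SSR2 (-0.14 to 0.19), SSR4 (-0.26 to 0.14), SPCS1 (-0.19 to 0.042), DAD1 (-0.094 to 0.030) and DDOST (-0.13 to 0.055). Apart from scaling, whose shift is given, the cause was not tested. With 3 libraries a group, the 95% interval of HSPA5 in the fit that ignores pairs runs from -0.72 to 0.09; its SE was 0.18 there and 0.087 with the block.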
